A study of Mus musculus with 24 samples.

Results

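The genes described here are 36 genes of glutathione, redox defence and the NRF2 pathway, listed by gene symbol, with no threshold on measured values in the rule. They were listed by 6 roles: NADPH supply, glutathione synthesis and recycling, the thioredoxin system, removal of peroxide and superoxide, glutathione transferases with their partners, and NRF2 with its targets. Of the 36, 35 were among the 20660 genes to which array probes were matched, and 34 passed the filter on dim signals. Slc7a11, the cystine importer, had 1 probe, which was well above background on 0 of 24 arrays, so it has no value here. Nnt, the mitochondrial transhydrogenase, was matched to no probe through the RefSeq names used and was not analysed here. That does not mean that the arrays lack a probe for it.

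The tissue was epididymal white fat, the fat pad next to the testis, of male C57BL/6JRcc mice aged 28 or 29 weeks. The study asked what fat does when vitamin B3 is withdrawn. For 18 weeks, 12 mice received 30 mg of nicotinamide riboside (NR, a B3 vitamer) per kg of diet (Ctrl NR) and 12 received 0 mg (No NR). Both diets were semi-synthetic, with 40% of energy from fat and 0.115% tryptophan, and all mice had eaten the Ctrl NR diet for 2 weeks beforehand. All were housed singly, given 0.8 g of food at lights-off, refed 1.8 g at lights-on and killed 4 hours later. Each mouse had an Agilent array of its own, on which its Cy5-labelled RNA was compared with a Cy3-labelled pool of fat RNA in which other diets and female mice were also represented. Mice are named by diet and animal number.

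Glutathione is a small thiol peptide that the ligases Gclc/Gclm and Gss build and that peroxidases and transferases spend on peroxides and reactive lipids. Glutathione reductase and the thioredoxin reductases restore the reduced thiols with NADPH, which is made from NADP and thus, through NAD, from vitamin B3. NRF2 (Nfe2l2) is held for degradation by KEAP1, is freed when oxidants modify KEAP1, and then binds antioxidant response elements in genes such as Gclm, Nqo1, Hmox1, Srxn1, Txnrd1 and several glutathione transferases. In fat, adipocytes express alpha-class glutathione transferases that clear lipid aldehydes, and macrophages handle haem and iron through Hmox1 and ferritin.

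The antioxidant response element that NRF2 binds was looked for in RefSeq promoter windows of 300 bases (250 before to 50 after a transcript start, GRCm38.p6), as TGACNNNGC on either strand. A window existed for 30 of the 36 genes, and 7 of these 30 (23.3%) held a match, against 14.0% of 27025 genes. A longer form of the element, with its core followed by A, was found in 2 of 30 (6.67%), against 3.44% of genes. The 7 genes were Abcc4, Gclm, Gsta3, Nfe2l2, Sod1, Srxn1 and Txnrd1. A match is a description of letters and not a site shown to be bound. Forms of the element with other letters were not searched for, so a gene without a match is not shown to lack one. The 2 upstream stretches below are shown because Gsta3, a glutathione transferase, varied most among the mice, and because Gclm is a textbook NRF2 target. Capitals mark the match, which in Gclm is printed as the reverse complement of the motif. They lie at chr1:21240335-21240564 (plus strand, 230 bases) and chr3:122245307-122245486 (plus strand, 180 bases) and end before the annotated gene start.
Gsta3: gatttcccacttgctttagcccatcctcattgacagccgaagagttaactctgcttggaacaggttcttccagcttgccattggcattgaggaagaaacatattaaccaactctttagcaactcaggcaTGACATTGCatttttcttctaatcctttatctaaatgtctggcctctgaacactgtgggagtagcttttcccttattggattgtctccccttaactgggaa
Gclm: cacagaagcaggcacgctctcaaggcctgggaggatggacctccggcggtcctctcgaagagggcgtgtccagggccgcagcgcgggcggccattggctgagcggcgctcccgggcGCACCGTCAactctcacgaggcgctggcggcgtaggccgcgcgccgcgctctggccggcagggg

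Levels are given as log2 ratios, mouse over pool, after background correction and loess normalization, and a gene with several probes is given by its brightest. Differences between diets are No NR minus Ctrl NR on that scale, from n = 12 mice in each diet where no other number is given, and the test is limma's, with Benjamini-Hochberg adjustment over all 21051 features and a threshold of 0.05. The share of spots well above background lay between 34.5% and 50.7% per array, the lowest share being that of Ctrl NR 115. Of the 34 measured genes, 33 were well above background on all 24 arrays. Nqo1 was so on 12 Ctrl NR and 11 No NR arrays. All 22 adipocyte markers were measured and well above background on every array. Of 28 macrophage markers, 26 were measured and 24 were well above background on every array. Their mean ranged from -1.27 to 0.90 in Ctrl NR mice and from -0.74 to 0.86 in No NR mice. Of 12 markers of epididymis and testis, 3 passed the filter, and their mean reached 4.05 in Ctrl NR 108. Next were Ctrl NR 77 with 2.82 and No NR 110 with 2.14.

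No gene of the group passed the threshold for diet. The 34 genes had a median difference of -0.02, against -0.01 over all features, with the No NR mean above that of Ctrl NR in 15 genes and below it in 19. By limma, 0 of 34 had an adjusted p under 0.05, against 0% of all features, and 8 (23.5%) had an unadjusted p under 0.05, against 14.1% of all features. Of those 8, 3 were higher in No NR mice (6.87% of all features were) and 5 lower (7.23% of all features were). The 95% interval of the difference lay within 0.5 of 0 on the log2 scale for 27 genes and within 1 of 0 for all 34. In each of the 34 genes the values of the diets overlapped. These interval and overlap counts were not set beside all features, so they do not set the 34 genes apart.

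**Figure D1:**
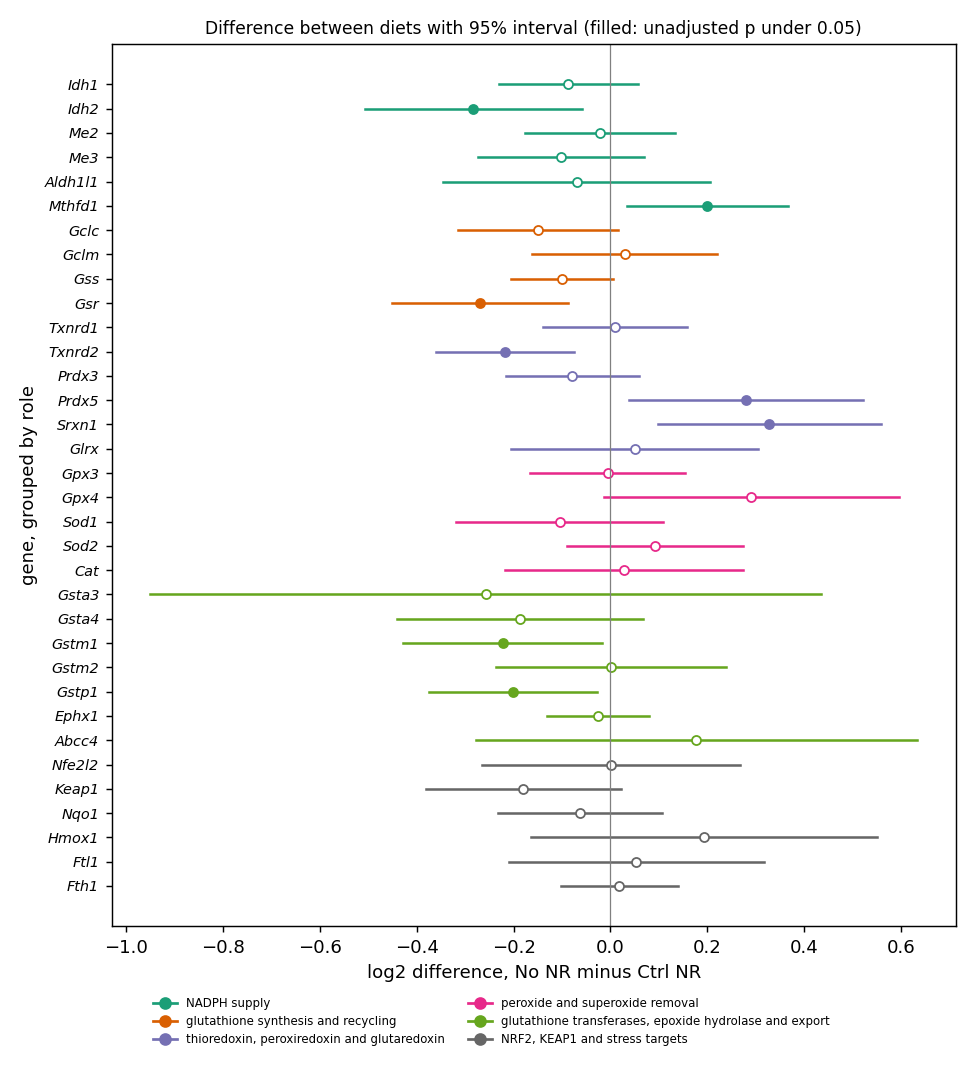
Difference between diets for each of the 34 measured genes (x axis, log2, No NR minus Ctrl NR), grouped by role on the y axis. Points are limma estimates from 12 mice per diet and lines their 95% intervals; filled points mark the 8 genes with an unadjusted p under 0.05, and none passed after adjustment.

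Among the genes listed under NADPH supply, 1 of 6 had the higher mean in No NR mice and 5 the lower. Idh2, the mitochondrial isocitrate dehydrogenase that makes NADPH, ranged from -0.55 through a median of -0.09 to 0.27 in Ctrl NR mice and from -1.26 through -0.33 to -0.10 in No NR mice. All 12 No NR mice lay below the Ctrl NR median, and 2 lay below the lowest Ctrl NR mouse. The Ctrl NR mean was -0.12 ± 0.25 (SD), the No NR mean -0.40 ± 0.31 and the difference -0.28 (SE 0.109, limma p = 0.0151, adjusted p = 0.245).

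Mthfd1, a cytosolic folate enzyme with an NADP-linked dehydrogenase, had the opposite sign. It ranged from -0.54 through -0.33 to 0.17 in Ctrl NR mice and from -0.47 through -0.06 to 0.31 in No NR mice, with 11 of 12 No NR mice above the Ctrl NR median. The difference was 0.20 (SE 0.0812, limma p = 0.0204, adjusted p = 0.266). The remaining genes listed under NADPH supply differed by -0.09 (Idh1, the cytosolic isocitrate dehydrogenase), -0.02 (Me2) and -0.10 (Me3), both malic enzymes, and -0.07 (Aldh1l1, a folate dehydrogenase that yields NADPH).

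Glutathione synthesis and recycling had 3 of 4 measured genes lower in No NR mice. Gsr, glutathione reductase, was between -0.08 and 0.99 in Ctrl NR mice with a median of 0.29, and between -0.26 and 0.25 in No NR mice with a median of 0.07. All 12 No NR mice lay below the Ctrl NR median and 3 below the lowest Ctrl NR mouse, while the highest Ctrl NR value belonged to mouse 115. The difference was -0.27 (SE 0.0884, 95% interval -0.45 to -0.09, limma p = 0.00502, adjusted p = 0.174), or 0.829-fold. It was negative on each of the 5 slides, from -0.92 on slide 1, which held 1 No NR mouse, to -0.01 on slide 4. The other Gsr probe differed by -0.22.

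The ligase genes differed less. Gss, glutathione synthetase, differed by -0.10 (95% interval -0.21 to 0.01) with 11 of 12 No NR mice below the Ctrl NR median. Gclc, the catalytic subunit of the rate-limiting ligase, differed by -0.15 (-0.31 to 0.02), also with 11 of 12 below. Gclm, the modifier subunit of the same ligase, differed by 0.03 (-0.16 to 0.22).

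In the thioredoxin group, 4 of 6 genes had higher and 2 had lower means in No NR mice. Txnrd2, the mitochondrial thioredoxin reductase, had the lowest p of the 34 genes. It ranged from -0.29 through -0.23 to 0.29 in Ctrl NR mice and from -0.55 through -0.37 to -0.04 in No NR mice, and 8 of 12 No NR mice lay below the lowest Ctrl NR mouse. Its mean was -0.13 ± 0.19 (SD) with Ctrl NR and -0.35 ± 0.13 with No NR, a difference of -0.22 (SE 0.0696, 95% interval -0.36 to -0.07, limma p = 0.0042, adjusted p = 0.163), or 0.860-fold. Txnrd1, the cytosolic thioredoxin reductase, differed by 0.01 (95% interval -0.14 to 0.16).

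Srxn1, sulfiredoxin, which repairs over-oxidised peroxiredoxins, had the largest difference upward. It ranged from -0.93 through -0.15 to 0.20 in Ctrl NR mice and from -0.33 through 0.13 to 0.43 in No NR mice. Of the No NR mice, 10 lay above the Ctrl NR median and 5 above the highest Ctrl NR mouse. The difference was 0.33 (SE 0.112, 95% interval 0.10 to 0.56, limma p = 0.00705, adjusted p = 0.191), or 1.26-fold, and 3 of 5 slides had this sign.

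Prdx5, a peroxiredoxin of mitochondria, peroxisomes and cytosol, ranged from -0.51 through -0.12 to 0.42 in Ctrl NR mice and from -0.20 through 0.21 to 0.76 in No NR mice. Here 10 No NR mice lay above the Ctrl NR median and 2 above the highest Ctrl NR mouse. The difference was 0.28 (SE 0.118, limma p = 0.0245, adjusted p = 0.278), again with 3 of 5 slides of this sign. Prdx3, the mitochondrial peroxiredoxin, differed by -0.08, and Glrx, the cytosolic glutaredoxin, by 0.05.

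None of the 5 genes that remove peroxide and superoxide had an unadjusted limma p under 0.05. Gpx4, which reduces lipid hydroperoxides within membranes, ranged from -0.74 through -0.09 to 0.37 in Ctrl NR mice and from -0.32 through 0.11 to 0.91 in 11 No NR mice. The highest No NR values, in mice 118, 78 and 74, lay above every Ctrl NR mouse. The difference was 0.29 (SE 0.148, 95% interval -0.01 to 0.60, limma adjusted p = 0.378), and all 5 slides had this sign. With slide as a fixed block it was 0.33, with an unadjusted limma p of 0.0343 (adjusted p = 0.342). The others were Gpx3, the secreted glutathione peroxidase (-0.01), Sod1 and Sod2, the cytosolic and mitochondrial superoxide dismutases (-0.11 and 0.09), and Cat, catalase (0.03).

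Glutathione transferases join glutathione to reactive compounds. Gstp1, of the pi class, ranged from -0.11 through 0.21 to 0.52 in Ctrl NR mice and from -0.36 through -0.01 to 0.40 in No NR mice, with 10 of 12 No NR mice below the Ctrl NR median. It differed by -0.20 (SE 0.0845, limma p = 0.0245, adjusted p = 0.278), and its other probe by -0.26. Gstm1, of the mu class, ranged from -0.39 through 0.11 to 0.44 and from -0.63 through -0.17 to 0.38, also with 10 of 12 No NR mice below the Ctrl NR median. It differed by -0.22 (SE 0.100, limma p = 0.0352, adjusted p = 0.313), and its other probe by -0.11.

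Gsta4, the transferase best known for lipid aldehydes, ranged from -0.52 through 0.05 to 0.63 in Ctrl NR and from -0.47 through -0.26 to 0.41 in No NR mice, a difference of -0.19 (95% interval -0.44 to 0.07). Its alpha-class relative Gsta3 differed by -0.26, with the widest interval of the 34 genes, from -0.95 to 0.44. Gstm2 differed by 0.00 (-0.24 to 0.24) and Ephx1, the microsomal epoxide hydrolase, by -0.03 (-0.13 to 0.08). Genes of the alpha, mu and pi classes have near-identical relatives, so part of their probe signal may be shared. The other 2 Gstm2 probes correlated with the one used by 0.144 and 0.707, and the 2 Ephx1 probes with each other by 0.071.

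NRF2 itself and its stress targets showed no unadjusted p under 0.05 in the limma test. Keap1, the inhibitor, was lower in all 12 No NR mice than the Ctrl NR median, with a difference of -0.18 (95% interval -0.38 to 0.02, limma adjusted p = 0.413) that was negative on all 5 slides. With slide as a fixed block its difference was -0.19 and its unadjusted limma p 0.0363 (adjusted p = 0.346), where 10 of the 34 genes and 13.2% of all features had an unadjusted p under 0.05. Nfe2l2 differed by 0.00 (-0.26 to 0.27). Nqo1, a quinone reductase and common readout of NRF2, differed by -0.06 (-0.23 to 0.11). Hmox1, haem oxygenase, differed by 0.19 (-0.16 to 0.55). Its other probe differed by 0.05 and correlated with the one used by 0.580. The ferritin chains Ftl1 (11 mice per diet) and Fth1 differed by 0.05 and 0.02.

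**Figure D2:**
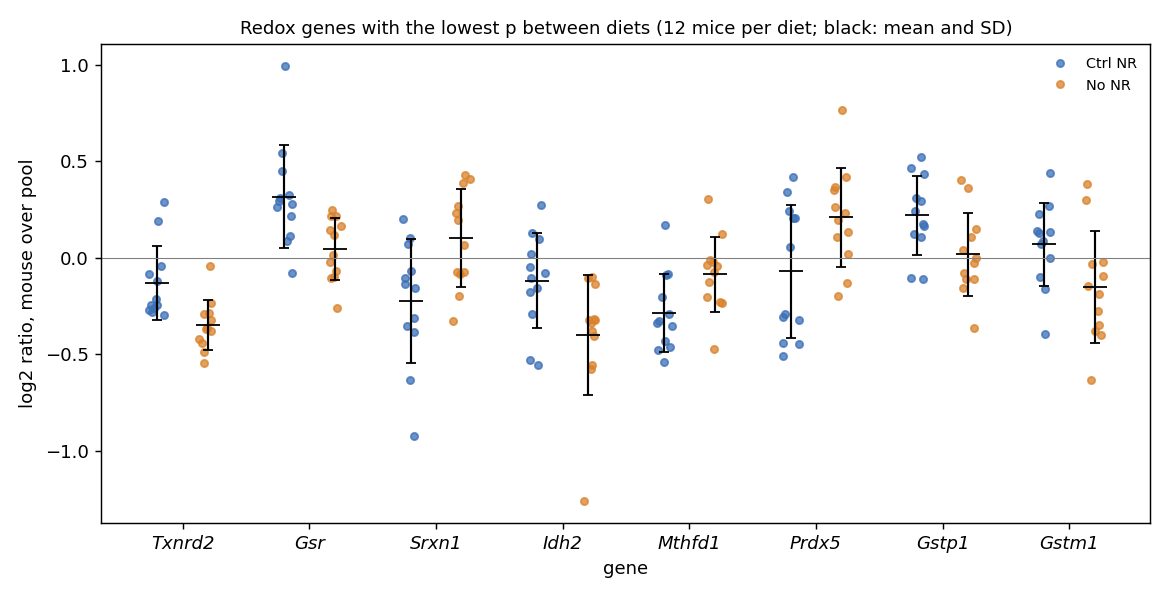
Log2 ratio of mouse over pool (y axis) for the 8 genes with the lowest unadjusted p for diet, 1 point per mouse, 12 mice per diet and gene; bars give mean ± SD. Txnrd2 lies lower in No NR mice, with 8 of 12 below the lowest Ctrl NR mouse, while every gene shows overlap between the diets.

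Other genes of the same pathways, from lists that hold none of the 34, gave 0 adjusted calls for diet by limma. Over all features there were also 0, with 10025 higher and 11026 lower in No NR mice. By limma, 14.1% of all features had an unadjusted p under 0.05. Of 12 other NADPH genes 4 were higher and 8 lower, with 0 unadjusted p under 0.05, and the lowest p were those of H6pd (-0.25), the glucose dehydrogenase of the endoplasmic reticulum, and Pgd (0.15), of the pentose phosphate pathway. Of 30 other glutathione genes 7 were higher and 23 lower (median -0.10), and 1 in each direction had an unadjusted p under 0.05: Ggt5 (0.24), which cleaves extracellular glutathione conjugates, and Chac1 (-0.36), which degrades glutathione in the cytosol.

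Of 22 other thioredoxin and peroxide genes 9 were higher and 13 lower. Prdx1 (0.29), a cytosolic peroxiredoxin, and Txndc12 (0.21), a thioredoxin-like protein of the endoplasmic reticulum, had an unadjusted p under 0.05. By limma, 14.1% of all features had such a p. Of 27 other NRF2 pathway genes 11 were higher and 16 lower, with 1 and 2 such calls, and the lowest p were those of Osgin1 (-0.50, limma adjusted p = 0.167), an oxidative stress response gene, and Akr1a1 (0.27), an NADPH-dependent aldehyde reductase. All 7 NADPH oxidase genes had higher means in No NR mice, with 0 unadjusted p under 0.05 by limma and the lowest p for Nox4 (0.16).

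The mice differed from each other far more in some of these genes than the diets did. With the diet mean removed, Gsta3 had an SD of 0.910 over the 24 mice, at the 99.6th percentile of all features. It ranged from -1.73 through a median of -0.16 to 1.57 in Ctrl NR mice and from -1.63 through -0.69 to 0.66 in No NR mice, so each diet held mice at both ends. Its second probe followed the first with r = 0.993.

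Next in spread were Abcc4 (SD 0.595), a pump that exports glutathione conjugates and other organic anions, and Hmox1 (0.463), and in both a single mouse held the extreme. Abcc4 ranged from -0.07 through 0.19 to 0.61 in Ctrl NR mice and from -0.11 through 0.21 to 2.95 in No NR mice, and the 2.95 was that of No NR 74. The next highest No NR mouse had 0.40, and without mouse 74 the Abcc4 difference between diets went from 0.18 to -0.05. Hmox1 ranged from -1.65 through -0.29 to 0.29 in Ctrl NR mice and from -0.85 through -0.13 to 0.30 in No NR mice, the lowest value being that of Ctrl NR 64.

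The same mouse was low in Nfe2l2. Nfe2l2 (SD 0.339) ranged from -0.94, in Ctrl NR 64, through -0.31 to 0.06 in Ctrl NR mice and from -1.26, in No NR 118, through -0.29 to 0.35 in No NR mice. Within its diet, Ctrl NR 64 had the lowest value of Gclm, Cat, Gsta3, Abcc4, Nfe2l2 and Hmox1 and the highest of Idh1, Txnrd2 and Keap1. Aldh1l1 (SD 0.352) ranged from -0.92 through 0.08 to 0.55 in Ctrl NR and from -0.49 through -0.13 to 0.20 in No NR mice. Glrx (SD 0.323) ranged from -0.65 through -0.19 to 0.49 and from -0.65 through -0.01 to 0.51, almost the same range in each diet. At the other end, Gss and Ephx1 had SDs of 0.106 each.

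**Figure D3:**
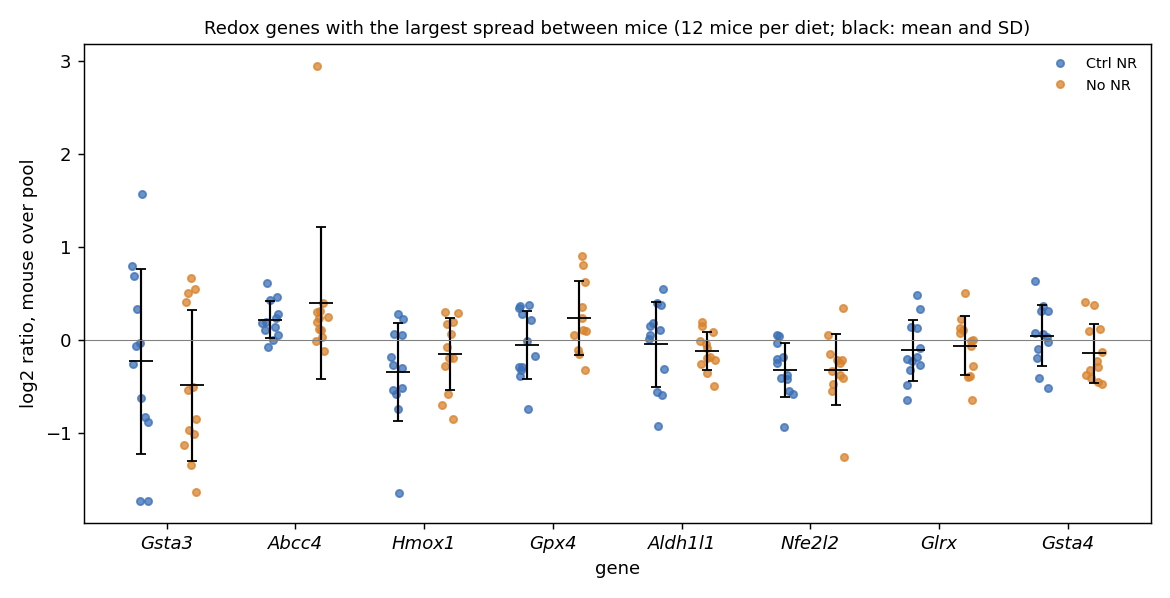
Log2 ratio of mouse over pool (y axis) for the 8 genes with the largest spread over the 24 mice after removing diet means, 1 point per mouse, 12 per diet, or 11 for Gpx4 in No NR; bars give mean ± SD. Gsta3 spans -1.73 to 1.57, and the single Abcc4 point at 2.95 is No NR 74.

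Fat pads of the same diet differed in their macrophage and adipocyte transcripts, and the genes were set against these. Each gene was fitted in limma on diet and on the mouse's mean over the 26 macrophage markers, none of them a member, and the slope is the log2 change per unit of that mean. Of the 34 genes, 13 (38.2%) had a slope with a limma adjusted p under 0.05, against 26.5% of all features. Of these 13, 3 rose with the macrophage markers (16.2% of all features did) and 10 fell (10.3% of all features did). All features include dimmer ones than these genes. Among the 14609 features well above background on all 24 arrays, 2835 rose and 2016 fell, larger shares in both directions. Of the 33 members among those, 3 rose and 10 fell. Members were chosen with earlier results of these data known, so the counts are a description. In bulk tissue, fewer cells of a type and less RNA per cell cannot be told apart.

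The genes that fell were led by the alpha-class transferases. Gsta3 had a slope of -1.26 (SE 0.0866, 95% interval -1.44 to -1.08, limma adjusted p = 1.49e-12), and its other probe -1.10. Its highest value, 1.57, was in Ctrl NR 115, the mouse with the lowest macrophage mean, and a value of -1.73 was in Ctrl NR 88, the mouse with the highest. Gsta4 followed with -0.41 (SE 0.0519, adjusted p = 3.01e-07 by limma).

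The other falling genes came from several roles. Aldh1l1 had a slope of -0.35 (SE 0.0771, limma adjusted p = 0.000904), Sod1 of -0.31 (SE 0.0526, limma adjusted p = 2.96e-05), Idh2 of -0.29 (SE 0.0628, limma adjusted p = 0.000854) and Gpx4 of -0.27 (SE 0.0963, limma adjusted p = 0.0349). Cat, Gstm1, Gstp1 and Prdx3 had slopes between -0.25 and -0.20. Gpx4 was the least stable call: it was lost when any 1 of 7 mice was left out (Ctrl NR 115 or 88, or No NR 118, 74, 78, 81 or 90), with limma adjusted p between 0.0506 and 0.118 and slopes between -0.28 and -0.22.

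The 3 rising genes act in thiol repair and iron storage. Glrx had a slope of 0.41 (SE 0.0531, limma adjusted p = 5.26e-07), Ftl1, the light ferritin chain, of 0.33 (SE 0.0674, limma adjusted p = 0.000467) and Srxn1 of 0.31 (SE 0.0612, limma adjusted p = 0.000224). The other Ftl1 probe had 0.65. Fth1, the heavy chain, had a slope of 0.00 (95% interval -0.10 to 0.09).

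Several of the classical NRF2 targets did not pass. Hmox1 had a slope of 0.30 (95% interval 0.06 to 0.54, limma adjusted p = 0.0599). Without Ctrl NR 64 it was 0.41 (limma adjusted p = 6.36e-05) and without Ctrl NR 115 it was 0.40 (limma adjusted p = 0.0101), past the threshold both times. The other Hmox1 probe had a slope of 0.21 with all mice. Nfe2l2 had 0.17 (limma adjusted p = 0.187), and 0.23 (limma adjusted p = 0.0416) without Ctrl NR 64. Txnrd1 had 0.12 (limma adjusted p = 0.0845), and 0.14 and 0.15 without Ctrl NR 64 or 75, where it passed (limma adjusted p = 0.0399 and 0.0367). Gstm2, Gclc and Sod2, which fell short of the threshold with all mice, passed without Ctrl NR 115 (-0.23, limma adjusted p = 0.0362), without No NR 118 (-0.15, limma adjusted p = 0.049) and without No NR 114 (-0.16, limma adjusted p = 0.0392). Nqo1 and Gclm had slopes of -0.10 (-0.22 to 0.03) and -0.07 (-0.21 to 0.07). Of the 7 genes whose promoter windows held a match to TGACNNNGC, Gsta3 and Sod1 fell, Srxn1 rose, and Abcc4, Gclm, Nfe2l2 and Txnrd1 did not pass.

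The slopes depended on the normalization within arrays. When ratios were only centred on each array's median in place of loess, the median slope of all features moved from 0.01 to 0.32, and 30 of the 34 genes rose and 0 fell by limma (17431 features rose and 6 fell). Set against that median, the 3 rising genes still lay above it, while 2 of the 10 falling genes lay below it. Gsta3 then had a slope of -0.18 (limma adjusted p = 0.257) and Gsta4 of 0.02. With ratios scaled between arrays, 8 genes rose and 13 fell, and Idh2 (-0.08), Prdx3 (-0.04) and Ftl1 (0.11) no longer passed.

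**Figure D4:**
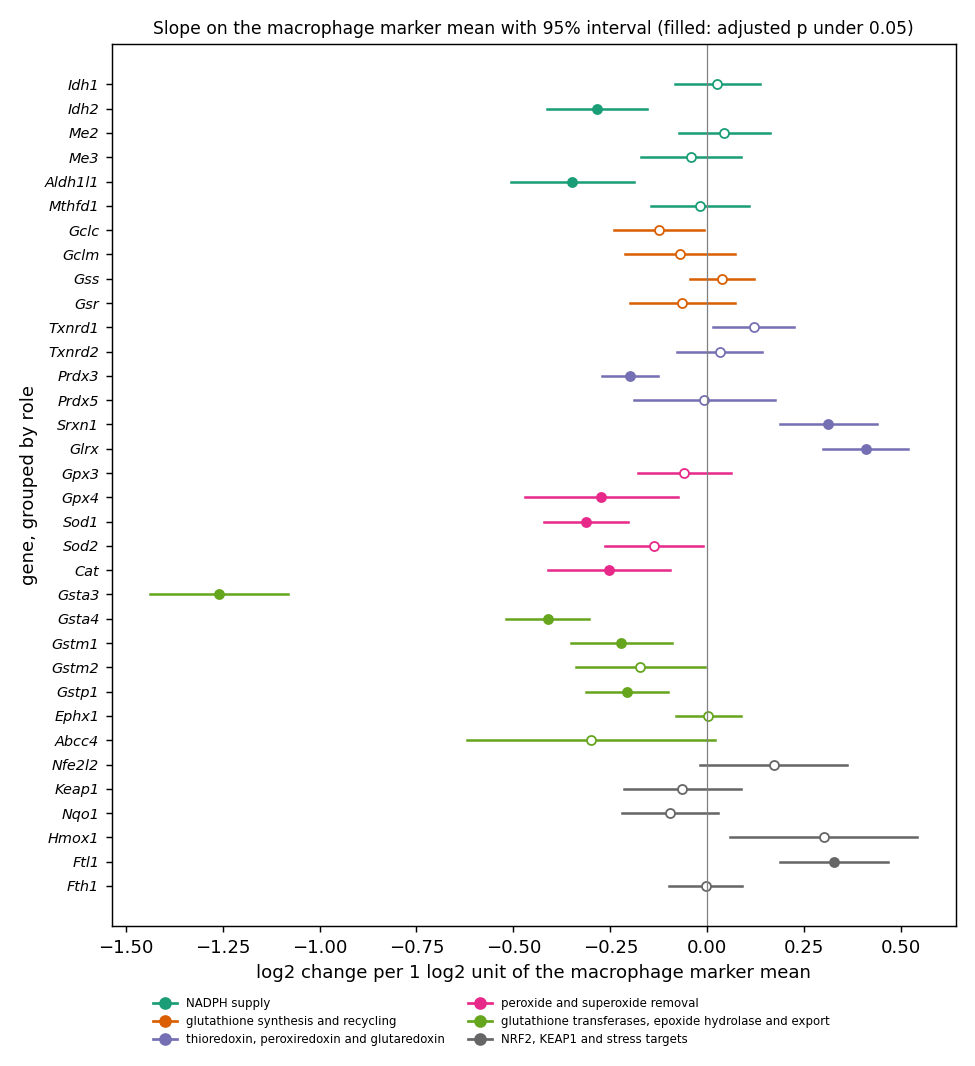
Slope of each of the 34 genes on the macrophage marker mean (x axis, log2 per unit of the mean, diet in the model), grouped by role on the y axis. Points are limma estimates over 24 mice with 95% intervals, and filled points mark the 13 genes with an adjusted p under 0.05; Gsta3 lies at -1.26 and Glrx at 0.41.

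The adipocyte markers gave the mirror picture. The macrophage and adipocyte means had r = -0.954 over the 24 mice with diet means removed, both taken from the same arrays as the genes, so slopes on one and on the other cannot be told apart. On the adipocyte mean, 11 of the 34 genes rose and 3 fell, against 10.9% and 16% of all features. Gsta3 had an adipocyte slope of 1.99 (limma adjusted p = 4.99e-11) and Glrx of -0.64 (limma adjusted p = 2.01e-06).

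Of the macrophage markers, 25 of 26 had higher means in No NR mice, and the marker mean was -0.14 ± 0.74 with Ctrl NR and 0.14 ± 0.62 with No NR. The diet model was also fitted with the marker mean as a term. With it, Srxn1 differed by 0.24 and Idh2 by -0.20 between diets, down in size from 0.33 and -0.28. Gpx4, which fell with the markers, went the other way, from 0.29 to 0.36 (unadjusted limma p = 0.0104, adjusted p = 0.197), and Gstm1 went from -0.22 to -0.16 (unadjusted limma p = 0.0692, adjusted p = 0.379). Txnrd2 (-0.23) and Gsr (-0.25), which had no called slope, kept nearly the same difference. By limma, 0 of the 34 had an adjusted p under 0.05 in that model, against 0.38% of all features, and 9 had an unadjusted p under 0.05, against 14.9%. Of other cell types, 10 of 13 endothelial and 9 of 9 mesothelial markers had lower means in No NR mice (medians -0.17 and -0.15). In the model with diet alone, 5 endothelial and 0 mesothelial markers had an unadjusted limma p under 0.05, against 14.1% of all features. With the macrophage mean 6 endothelial markers fell, against 10.3% of all features. The part of these cell types in the diet differences was not tested.

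The slopes were also fitted per diet. Gsta3 had -1.26 in each diet, and Glrx had 0.37 with Ctrl NR and 0.46 with No NR. Hmox1 had 0.10 (SE 0.180) in Ctrl NR and 0.59 (SE 0.075) in No NR mice, and Nfe2l2 0.00 (SE 0.108) and 0.42 (SE 0.119). Ctrl NR 64, with a macrophage mean of 0.54, held the lowest Ctrl NR values of Hmox1 (-1.65) and Nfe2l2 (-0.94). The lowest No NR value of Nfe2l2, -1.26, was in No NR 118, with a macrophage mean of -0.72. Slopes per diet without these mice are not given here. Gpx4 had -0.08 and -0.56, Gstm2 0.02 and -0.45, and Sod1 -0.19 and -0.49. Prdx5 (0.18 and -0.27) and Gsr (-0.20 and 0.12) had slopes of opposite sign in the diets. By limma, 0 of the 34 slope differences, and 0 of those of all 21051 features, had an adjusted p under 0.05. At an unadjusted p under 0.05 there were 7 of 34, against 10.3% of all features, with a lowest adjusted p of 0.409.

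**Figure D5:**
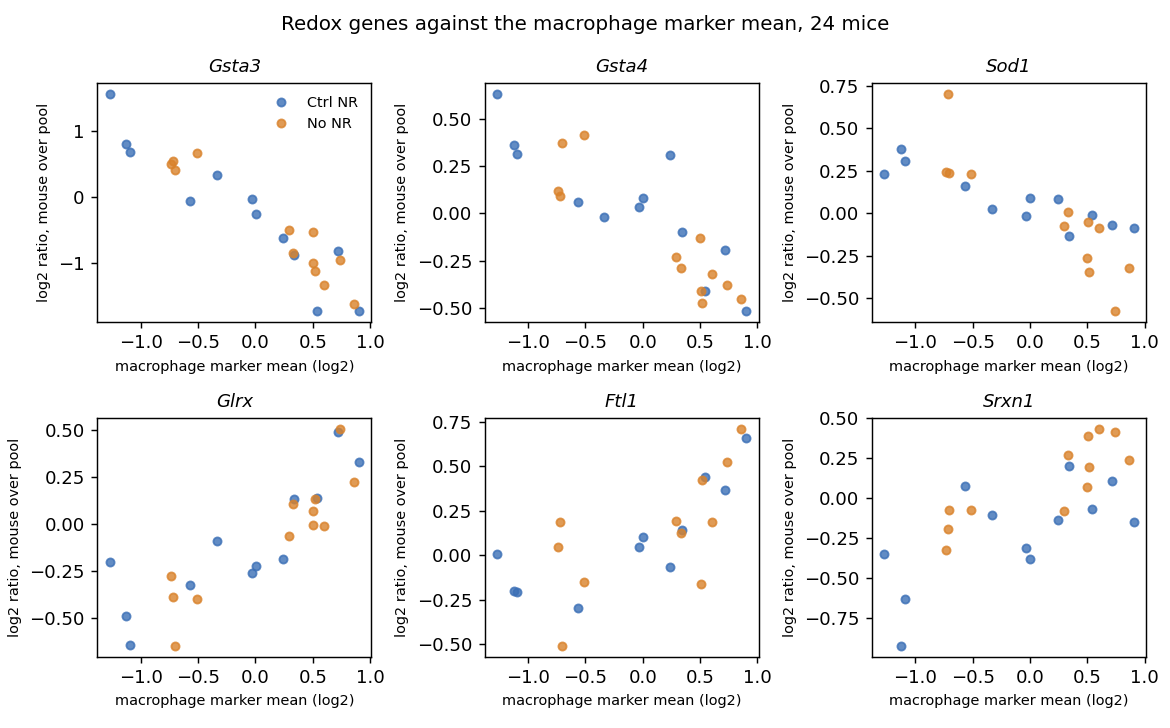
Log2 ratio of mouse over pool (y axis) against the macrophage marker mean (x axis, log2), 1 point per mouse, coloured by diet. Gsta3, Gsta4 and Sod1 have falling slopes, and Glrx, Ftl1 and Srxn1 rising ones. Gsta3 goes from 1.57 in Ctrl NR 115 at the left to -1.73 in Ctrl NR 88 at the right.

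Other genes of these pathways were counted along the same axis, on which 16.2% of all features rose and 10.3% fell. Of the 12 other NADPH genes 2 rose and 5 fell with the macrophage markers, of the 30 other glutathione genes 1 rose and 7 fell, and of the 22 other thioredoxin and peroxide genes 4 rose and 5 fell. Of the 27 other NRF2 pathway genes 11 rose and 4 fell. All 7 NADPH oxidase genes rose, which form the enzyme that makes superoxide in phagocytes and other cells.

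Chosen pairs of the genes, some of them subunits of one protein or relatives of one class, were compared over the mice. Diet means were removed, permutation was within diets, and adjustment was over 10 pairs. Gsta3 and Gsta4 had r = 0.911 and rho = 0.890 (n = 24, permutation p = 1e-05 for each, the smallest that 100000 permutations can give, adjusted p = 1e-04). The relation held when the 2 mice farthest from the median were left out (r = 0.881), within Ctrl NR (0.899), within No NR (0.934) and with slide means removed (0.907). With the macrophage marker mean removed, r was 0.543.

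The other 9 pairs did not pass, with adjusted permutation p of r between 0.0744 and 0.802. Txnrd1 and Srxn1 had r = 0.522 and rho = 0.362 (permutation p = 0.0149 and 0.0908, adjusted p = 0.0744 and 0.151), and leaving out the 2 farthest mice gave r = 0.330. Gclc and Gclm, the subunits of one ligase, had r = 0.387 and rho = 0.424 (permutation p = 0.0825 and 0.0506, adjusted p = 0.137 and 0.116), with 0.210 with Ctrl NR and 0.721 with No NR. Without the 2 farthest mice their r was 0.459, and with slide means removed 0.429.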

How the data were processed

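Fat RNA of 24 mice, 12 per diet, was measured on 24 two-colour arrays of 62976 spots. Per the file headers, the deposited intensity values are linear spot signals extracted by Agilent Feature Extraction 10.7.3.1. Yes or no flags per spot, for outliers, saturation and signal over background, were set by that software, per the file headers. The authors' deposited value table holds log2 values of 26384 features that followed Cy5 intensity (r at least 0.990) and not the ratio (r at most 0.180), with a median of 8.04 in each column. How it was normalized and centred is not given in the sources used here, and it served as an alternative. All arrays had the mouse in Cy5, so the direction is settled by the labels.

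Background was corrected by normexp with offset 50 and ratios were normalized by loess in limma 3.58.1 (R 4.3.3), with control spots at weight 0 and outlier-marked spots then left out. A probe stayed if Cy5 was marked well above background on 6 or more of 12 arrays in at least 1 diet: 24769 of 55681 probes, which gave 21051 features (13014 named genes and 8037 unnamed probes). Accessions were named through a RefSeq table (GRCm38.p6), which matched 27235 probes. The files name the build mm9, so no array coordinates are printed. The share of values missing was 0.112%. The number of arrays limits precision, and the median standard error of a diet difference was 0.0811. Replicates are separate mice. No array pair was identical (0 pairs).

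The diet test, marker slopes, pairs and promoter motif are as described with the results. The 5 slides each held both diets, 2, 2, 2, 4 and 2 mice of Ctrl NR beside 1, 3, 3, 2 and 3 of No NR, and slide was tried as a block. Values per mouse are given for the 8 genes with the lowest unadjusted p for diet and the 8 with the largest SD, slopes for up to 6 genes per direction among those that passed, and the 2 lowest p of each pathway list; others are given by difference or count. A further gene of the pathway lists is not reported here. Members and lists were chosen with earlier results of these data known. In 10 runs on simulated data with 200 of 21051 features changed, 84.6% of diet differences of 0.5 and 98.9% of those of 1 were recovered, and 88.35% of slopes of 0.5. The diet differences of the 34 genes lay between -0.28 and 0.33, so these rates do not cover their sizes. The share recovered also depends on how many features change, and in the data 0 passed for diet. Alternatives were 14 other settings and leaving out each of the 24 mice. Slopes per diet, and slopes relative to the median of all features, were added after seeing the data.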

Additional observations from a re-analysis of the deposited data

How the results depend on the processing

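Results were recomputed under 38 other settings, 24 of which left out 1 mouse. No paired analysis was possible because the diets share no animal number. No diet difference of a member passed the adjusted limma threshold in any setting, and all members with an unadjusted p under 0.05 kept their direction in all 38. Over all features, 0 passed by limma, against 3 above background on all 24 arrays, 3 with an intensity trend, 80 with the macrophage covariate and 0 to 227 on leaving out 1 mouse: 227 without Ctrl NR 68, 220 without 117, 80 without 104, 34 without 75, 9 without 77, 2 without No NR 118 and 3 without No NR 78. At an unadjusted p under 0.05 there were 264 features under median centring and 4557 with no filter, and 4 members under processed signals and 0 under median centring (limma). Of the unadjusted calls 48.7% were higher in No NR mice, against 59.8% with no background subtraction, 79.0% with processed signals and 31.8% under median centring. Members rising with the macrophage markers were 30 under median centring, 8 when scaled between arrays and 3 to 6 on leaving out 1 mouse, with 6 without Ctrl NR 64; members falling were 0 under median centring. The causes were not tested.

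Small diet differences changed sign. Under median centring they were -0.12 for Txnrd1, -0.12 for Sod2, -0.11 for Cat, -0.19 for Gstm2, -0.12 for Nfe2l2, -0.21 for Ftl1, -0.23 for Fth1 and -0.03 for Pgd. Scaled between arrays they were -0.01 for Gclm, -0.13 for Txnrd1, -0.06 for Glrx, 0.03 for Sod1, -0.23 for Nfe2l2 and -0.05 for Hmox1. With processed signals they were 0.03 for Aldh1l1, 0.05 for Gpx3, -0.04 for Gstm2 and 0.01 for Ephx1. With no background subtraction they were 0.00 for Gpx3, -0.01 for Gstm2, -0.01 for Ftl1 and -0.03 for Fth1. In the authors' value table they were -0.05 for Gstm2, -0.01 for Nfe2l2, -0.02 for Ftl1 and -0.09 for Fth1. With the macrophage covariate they were 0.03 for Aldh1l1, -0.02 for Txnrd1, -0.06 for Glrx, 0.01 for Gpx3, 0.09 for Gsta3, -0.05 for Nfe2l2 and -0.02 for Ftl1. With the share of spots as covariate they were -0.01 for Txnrd1 and -0.01 for Nfe2l2, with slide as a block -0.02 for Gstm2 (fixed) and 0.00 for Nfe2l2 (random), and with the mean of the probes 0.00 for Cat. On leaving out 1 mouse the ranges were -0.06 to 0.01 for Me2, -0.01 to 0.07 for Gclm, -0.03 to 0.04 for Txnrd1, 0.00 to 0.10 for Glrx, -0.04 to 0.04 for Gpx3, -0.06 to 0.07 for Cat, -0.07 to 0.05 for Gstm2, -0.05 to 0.22 for Abcc4, -0.06 to 0.09 for Nfe2l2 and 0.00 to 0.12 for Ftl1.

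Slopes on the macrophage mean that changed sign under median centring were 0.37 for Idh2, 0.32 for Aldh1l1, 0.21 for Gclm, 0.36 for Prdx3, 0.41 for Gpx4, 0.39 for Sod1, 0.35 for Cat, 0.02 for Gsta4, 0.41 for Gstm1, 0.37 for Gstp1 and 0.10 for Abcc4, and Gclm was 0.04 when scaled between arrays. Gpx4 also missed the limma threshold with no background subtraction (-0.22), processed signals (-0.18), the value table (-0.17) and no filter (-0.27), and Gstm1 with the value table (-0.16). Members that passed only under another setting, beside median centring and the single mice named in the report, were Gclc with no background subtraction (-0.16), processed signals (-0.20), the value table (-0.16) and the share covariate (-0.16); Gsr (-0.12) and Txnrd1 (0.14) with processed signals; Nqo1 (-0.23) and Fth1 (0.14) in the value table; Sod2 (-0.16) and Hmox1 (0.38) with slide as a fixed block; and Hmox1 with the mean of the probes (0.26). Scaled between arrays, Idh1 (0.14), Me2 (0.14), Txnrd1 (0.27), Txnrd2 (0.25), Nfe2l2 (0.41) and Hmox1 (0.53) rose and Prdx5 (-0.19), Sod2 (-0.15), Gstm2 (-0.34), Abcc4 (-1.44) and Fth1 (-0.20) fell. Signal over background limits Slc7a11, which was not well above it on any array.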
